A study of Caenorhabditis elegans with 6 samples.

Results

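The genes described here are components of the autophagy machinery of C. elegans and hlh-30, the gene of a transcription factor that controls many autophagy and lysosome genes. They were chosen by name, as a fixed list of 10 genes, and 8 of the 10 had a row in the deposited table of 16391 genes. These were lgg-1, lgg-2, sqst-1, bec-1, unc-51, atg-7, atg-9 and hlh-30, while atg-18 and epg-5 were not analysed here. Whole L4 larvae of the wild-type strain N2, fed the E. coli strain OP50, were used for RNA-seq, with 3 libraries per temperature, grown at 15°C or at 25°C. The groups differed only in culture temperature by their labels, and the study's methods state that parents were moved to each temperature and that egg laying started earlier at 15°C to match development. Nothing in the labels says that the libraries of a temperature came from separate cultures, so p-values measure the spread between these libraries, which may be technical. The values are FPKM, the fragments assigned to a gene relative to transcript length and to all mapped fragments, and the sequencing depth behind them is unknown.

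Autophagy delivers cytoplasm, protein aggregates and organelles to the lysosome inside a double-membraned vesicle, the autophagosome. A kinase complex around UNC-51 starts the process, a lipid kinase complex with BEC-1 marks the membrane on which the vesicle grows, and ATG-9 is the membrane protein of the small vesicles that feed it. The ubiquitin-like proteins LGG-1 and LGG-2 are then coupled to a membrane lipid by enzymes that include ATG-7, and SQST-1, the worm p62, binds ubiquitinated cargo and LGG proteins and is itself degraded with its cargo. Because SQST-1 protein is consumed by autophagy, a transcript level alone does not give the rate of the process. HLH-30, the worm TFEB, moves to the nucleus in starvation, heat shock and several long-lived mutants, and its activity is regulated mainly by that movement.

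Among the 8 genes, the transcripts of lgg-1 and sqst-1 were about 2-fold higher at 25°C, and the other 6, hlh-30 among them, did not pass the test. A gene was counted as changed where limma, fitted on log2(FPKM + 0.5) across all 12996 genes whose mean reached 1 FPKM, gave an adjusted p under 0.05 at any fold change. The stricter rule of the study asked for more than a 2-fold change together with an adjusted p under 0.01. Here these thresholds were applied to limma, while the study's own calls came from the Cufflinks tools. A gene past the study's rule below is thus not a call of the study. By the first rule 2 of the 8 genes were higher, where 18.2% of all tested genes were, and 0 were lower, where 21.3% were (39.5% in either direction). By the study's rule 1 was higher, sqst-1, and 0 were lower, where 6.96% and 5.59% of all tested genes were (12.5% in either direction), and treat, the limma test against a 2-fold change, called 0 in either direction. At an unadjusted p under 0.05, 3 were higher and 1 was lower, where 22.9% and 26.9% of all tested genes were (49.9% in either direction). In 4 of the 8 genes all libraries of one temperature lay apart from those of the other, each higher at 25°C, a pattern shown by 25.9% of all tested genes (54.7% in either direction). Their median change in log2 was 0.11, against -0.03 over all tested genes.

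**Figure D1:**
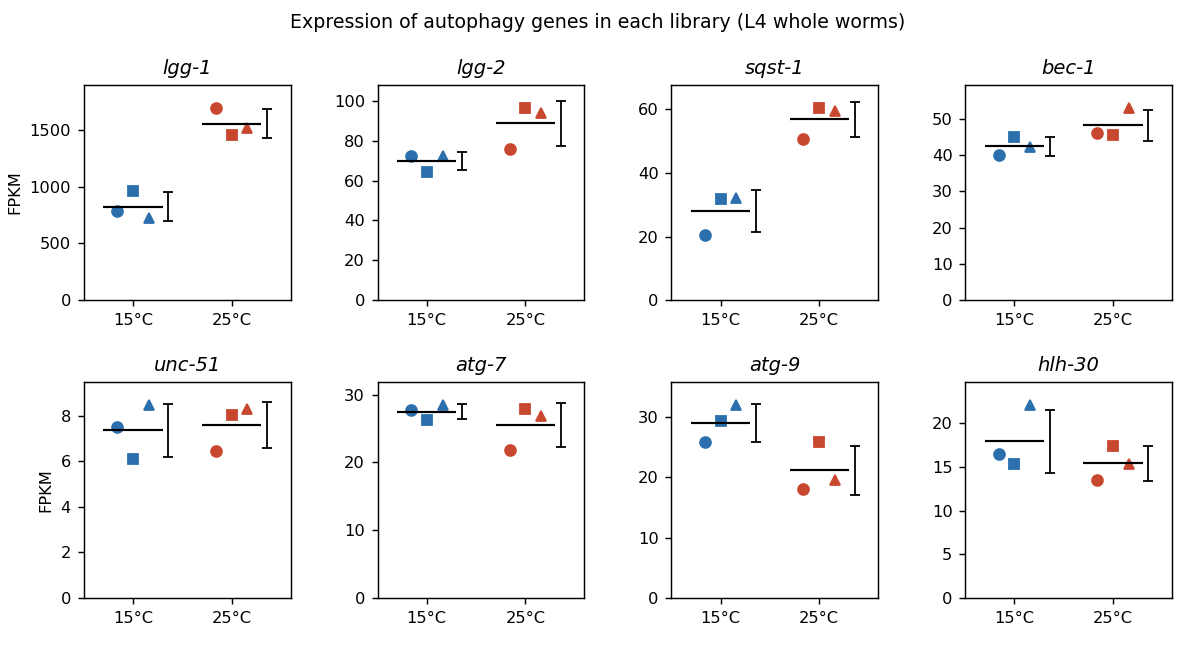
FPKM (vertical axes, each from 0) of the 8 autophagy genes in the 3 libraries at 15°C (blue) and the 3 at 25°C (red), with circles, squares and triangles for replicates 1, 2 and 3, a line at the mean and a bar for the SD. For lgg-1 the libraries at 25°C lie between 1452 and 1697 FPKM and those at 15°C between 721 and 963 FPKM, while the libraries of hlh-30, unc-51, atg-7 and atg-9 overlap.

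The ATG8 homologs came first in the order of levels. LGG-1 is the homolog of the GABARAP type, which coats autophagosomes, and its gene occupies bases 6346960 to 6347719 of chromosome II (WBcel235, minus strand), with an exonic length of 708 bases. Its level was 790, 963 and 721 FPKM at 15°C and 1697, 1452 and 1520 FPKM at 25°C. Every library at 25°C was thus above every library at 15°C, and the distance between the groups was larger than the range within either. The means were 825 ± 125 and 1556 ± 126 FPKM (SD, n = 3 per temperature), which is a log2 difference of 0.92 (standard error 0.13, 95% interval 0.61 to 1.24, adjusted p = 0.0026 from limma), or 1.90-fold. lgg-1 ranked at the 96.7th percentile of all tested genes by its level at 15°C and at the 98.2nd percentile at 25°C. The difference missed the study's rule only by its size, and it passed that rule without 15°C replicate 2, where the log2 fold change was 1.04, and with the libraries rescaled to TPM (1.11) or to equal sums (1.11). TPM and equal sums divide by the same library sums and are not separate checks. The call at an adjusted p under 0.05 held without each of the 6 libraries in turn.

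LGG-2 is the homolog of the LC3 type, which acts at later steps, in autophagosome maturation. Its gene lies on chromosome IV from 10934196 to 10935903 on the minus strand. Its level was 72.5, 64.4 and 72.2 FPKM at 15°C and 75.6, 96.6 and 93.9 FPKM at 25°C. The groups did not overlap, but 25°C replicate 1 lay close to the libraries at 15°C. The log2 fold change was 0.34 (standard error 0.13, 95% interval 0.03 to 0.65, adjusted p = 0.078 from limma), which did not pass. It passed without 25°C replicate 1 (0.45), with rescaling to TPM (0.52) and with equal sums (0.52). The transcript of lgg-1 was more abundant than that of lgg-2 in every library, by 10.9, 15.0 and 9.98 times at 15°C and by 22.5, 15.0 and 16.19 times at 25°C. The lowest ratio at 25°C and the highest at 15°C were almost equal. The log2 ratio was 3.56 ± 0.31 at 15°C and 4.14 ± 0.31 at 25°C (SD, n = 3 for each), a difference of 0.58 (exact two-sided permutation test, p = 0.10, the smallest that 3 libraries against 3 allow).

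On the log2 scale sqst-1 had the largest difference of the 8 genes with all libraries, though not without 15°C replicate 1, where lgg-1 was at 0.90 and sqst-1 at 0.82. It encodes the receptor that brings ubiquitinated protein aggregates to the autophagosome, and lies on chromosome IV from 12034282 to 12036891 on the plus strand. Its level was 20.3, 31.7 and 32.2 FPKM at 15°C and 50.6, 60.5 and 59.5 FPKM at 25°C. 15°C replicate 1 was the lowest library, and the lowest at 25°C was still well above the highest at 15°C. The means were 28.1 ± 6.69 and 56.8 ± 5.46 FPKM (SD, n = 3 per temperature), which is a log2 difference of 1.03 (standard error 0.20, 95% interval 0.57 to 1.49, adjusted p = 0.0070 from limma), or 2.04-fold. sqst-1 stood just inside the study's rule and was no longer called by it without any one of the 6 libraries. The log2 fold change was 0.82, 1.13 and 1.14 without 15°C replicates 1, 2 and 3 and 1.11, 0.98 and 0.996 without 25°C replicates 1, 2 and 3, with adjusted p between 0.011 and 0.029. In each of these 6 fits the adjusted p stayed under 0.05.

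**Figure D2:**
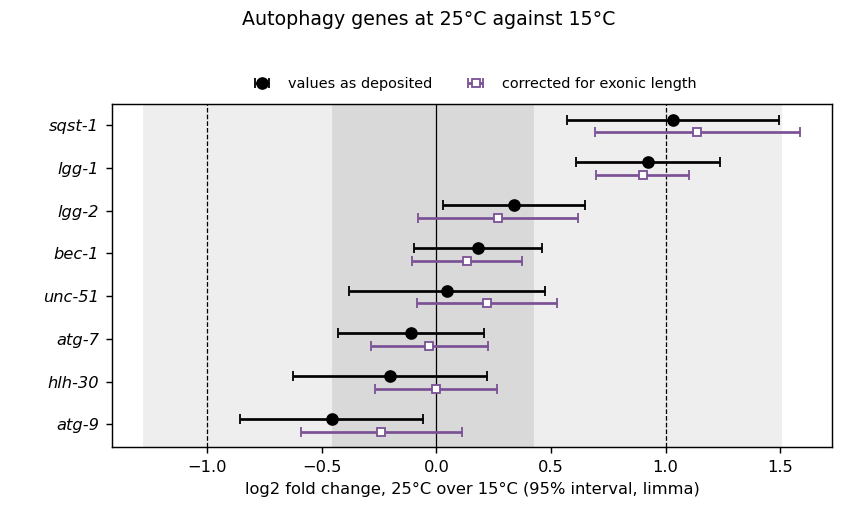
Log2 fold change at 25°C over 15°C (horizontal axis) with 95% intervals from limma for the 8 autophagy genes, from the values as deposited (black circles) and after a correction for exonic length (open squares). Dark and light bands hold the middle 50% and 90% of all tested genes and dashed lines mark a 2-fold change. sqst-1 and lgg-1 lie above the dark band at 1.03 and 0.92, and hlh-30 moves from -0.20 to near 0 with the correction.

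The members bec-1, unc-51 and atg-7 did not pass the test. bec-1, the worm Beclin, a subunit of the lipid kinase complex, was at 40.0, 45.1 and 42.2 FPKM at 15°C, against 46.2, 45.5 and 53.1 FPKM at 25°C. The groups did not overlap, but by less than 1 FPKM, and the log2 fold change was 0.18 (95% interval -0.10 to 0.46, adjusted p = 0.26 from limma). unc-51, the gene of the initiating kinase and the ULK homolog of the worm, was the lowest of the 8 at both temperatures, with 7.48, 6.11 and 8.45 FPKM at 15°C and 6.45, 8.04 and 8.27 FPKM at 25°C. Its groups covered nearly the same range, and the log2 fold change of 0.05 had a 95% interval from -0.38 to 0.47 (adjusted p = 0.85 from limma). atg-7, which encodes the E1-like enzyme that activates the ubiquitin-like proteins, was at 27.7, 26.2 and 28.4 FPKM at 15°C, against 21.8, 27.9 and 26.8 FPKM at 25°C. One library, 25°C replicate 1, lay below the other 5, and the log2 fold change was -0.11 (95% interval -0.43 to 0.21, adjusted p = 0.54 from limma).

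atg-9, the gene of the only transmembrane protein among the core autophagy proteins, went the other way from lgg-1 and sqst-1 without passing the test. It was at 25.8, 29.3 and 31.9 FPKM at 15°C, against 18.1, 25.8 and 19.5 FPKM at 25°C. The groups met where 25°C replicate 2 and 15°C replicate 1 both stood at 25.8 FPKM. The log2 fold change was -0.46 (standard error 0.17, 95% interval -0.85 to -0.06, adjusted p = 0.068 from limma). Without 25°C replicate 2 it was -0.61 and passed at an adjusted p of 0.029 (limma, with 0.029 to 1 over the alternatives).

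hlh-30 lies on chromosome IV from 4014793 to 4034951 on the minus strand, and encodes a helix-loop-helix factor that binds E-box elements near autophagy and lysosome genes. Its level was 16.5, 15.3 and 22.1 FPKM at 15°C and 13.5, 17.5 and 15.3 FPKM at 25°C. One library stood above the rest, 15°C replicate 3, and the other 5 lay within 4 FPKM of each other. The means were 17.9 ± 3.61 and 15.4 ± 1.98 FPKM (SD, n = 3 per temperature), which is a log2 difference of -0.20 (standard error 0.18, 95% interval -0.63 to 0.22, adjusted p = 0.40 from limma). The interval runs from 0.648-fold to 1.17-fold. The genes whose profile over the 6 libraries was most like that of hlh-30, by Pearson correlation of log2(FPKM + 0.5), were tfg-1, iars-1 and mca-2 (r = 0.99 for each, over 6 libraries and among 12995 genes). With 6 libraries 65 genes had an r above 0.95 with hlh-30. For sqst-1 the nearest were fbxa-18, cpx-1 and F02D8.4, with r = 0.998 for each, and 351 genes were above 0.95.

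The 3 members with the longest transcripts, hlh-30, atg-9 and unc-51 (exonic lengths of 3268, 3589 and 2897 bases), belong to a length class whose level varied by library. Over the 1815 tested genes with more than 2500 exonic bases, the median deviation from the gene's mean was 0.12, -0.11 and 0.33 on the log2 scale in 15°C replicates 1, 2 and 3 and -0.20, 0.0013 and -0.10 in 25°C replicates 1, 2 and 3. For hlh-30 the deviations were -0.0014, -0.11 and 0.41 at 15°C and -0.28, 0.08 and -0.10 at 25°C, so its highest and lowest libraries were those of long genes as a class. atg-9 had the same highest and lowest libraries (0.37 and -0.43) but stood at 0.25 in 15°C replicate 2, where the class was low. unc-51 was also highest in 15°C replicate 3 (0.18), while its lowest was 15°C replicate 2 (-0.26) and it stood at 0.15 in 25°C replicate 3. The median log2 fold change of these long genes was -0.20, against 0.02 for the 7162 genes of 800 to 2500 bases. A correction for exonic length in each library, chosen after the data were seen, brought hlh-30 to -0.0013 (95% interval -0.27 to 0.27), atg-9 to -0.24 (-0.59 to 0.11) and unc-51 to 0.22 (-0.09 to 0.53). It takes out the deviation shared by genes of similar length, so an upward shift of these long genes was fixed in advance. It would also remove a temperature difference shared by long genes. lgg-1 was at 0.90 and sqst-1 at 1.14 with the same correction, and both kept an adjusted p under 0.05 (limma, 0.00056 and 0.0039). The 2876 genes under 800 bases, with lgg-1 among them, varied by library as well. Their medians were 0.05, 0.16 and -0.15 in the libraries at 15°C and 0.09, -0.04 and -0.02 in those at 25°C. Within each temperature the libraries of lgg-1 stood in the same order (-0.51, -0.23 and -0.64, then 0.59, 0.36 and 0.43). The ratio of lgg-1 to lgg-2 was not corrected for length.

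**Figure D3:**
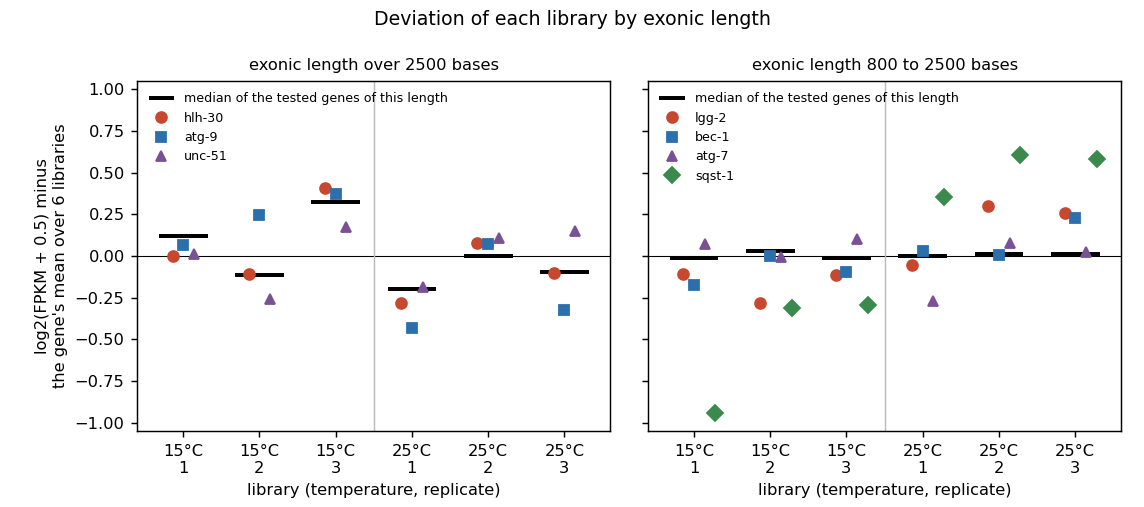
Deviation of each library from the gene's mean over the 6 libraries on the log2(FPKM + 0.5) scale (vertical axis), by library (horizontal axis, temperature and replicate), for genes with more than 2500 exonic bases (left) and 800 to 2500 (right). Black bars are the median of all tested genes of that length and symbols are autophagy genes. In 15°C replicate 3 the long genes have a median of 0.33 and hlh-30 is at 0.41.

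By level per transcript length, the order at 15°C was lgg-1, lgg-2, bec-1, atg-9, sqst-1, atg-7, hlh-30 and unc-51. The libraries of neighbours in this order lay apart except for atg-9, sqst-1 and atg-7, which overlapped. At 25°C sqst-1 stood in the third place instead of the fifth, and the order was lgg-1, lgg-2, sqst-1, bec-1, atg-7, atg-9, hlh-30 and unc-51. There, sqst-1 overlapped with bec-1 and atg-7 with atg-9. The coefficient of variation among the libraries of a temperature ran from 4.07% for atg-7 at 15°C to 23.8% for sqst-1 at 15°C. At 25°C it ran from 8.11% for lgg-1 to 19.5% for atg-9. Of the 8 genes, 5 lie on chromosome IV, 2 on V and 1 on II.

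**Figure D4:**
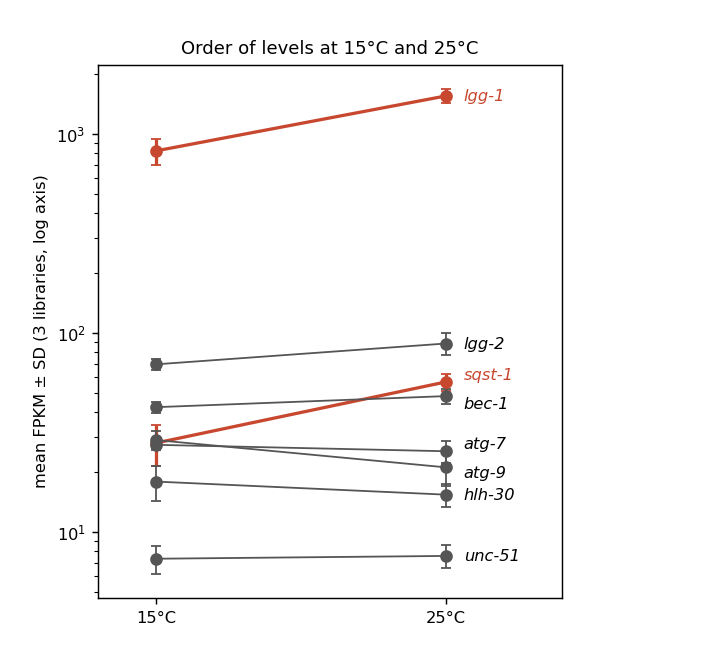
Mean FPKM with SD over 3 libraries (log axis) of the 8 autophagy genes at 15°C and 25°C, joined by a line for each gene. Red marks lgg-1 and sqst-1, which passed an adjusted p under 0.05, and the line of sqst-1 crosses that of bec-1, from 28.1 to 56.8 FPKM.

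The same contrast was read for the other genes of the pathway, from lists by step of autophagy and for the lysosome, the transcription factors and nutrient signaling. Without the 8 members, 60 genes were tested, of which 7 were higher and 13 lower at an adjusted p under 0.05, with a median log2 fold change of -0.19. By the study's rule 4 were higher and 2 lower. Read against the 18.2% and 21.3% of all tested genes past the first rule and the 6.96% and 5.59% past the study's, the share of pathway genes was below the background for those higher by the first rule and near it for the others. Leaving out 25°C replicate 1 or 3 gave 8 or 7 lower in place of 13. By the study's rule 1 gene was lower when 15°C replicate 3 or 25°C replicate 1 or 3 was left out. In the same fits 397, 403 and 343 of all tested genes were lower by that rule, against 726 with all libraries. The share of all tested genes past the first rule is not given here for these fits. Scaling mattered as well. By the study's rule, 904 of all tested genes were higher and 726 lower as deposited. The numbers were 1096 and 395 with TPM and 1212 and 422 with equal sums. Rescaling to TPM or to equal sums gave 12 higher and 7 lower pathway genes by the first rule. Either moved the median of all tested genes, from -0.03 to 0.13 and 0.15. Relative to that median, lgg-1 was at 0.96, 0.98 and 0.96 with the values as deposited, TPM and equal sums, and sqst-1 at 1.06, 1.06 and 1.07.

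In the initiation complex, the member unc-51 included, 1 of 4 tested genes was higher and 0 lower at an adjusted p under 0.05. Over all tested genes the shares were 18.2% and 21.3%. epg-9, whose product is the ATG101 homolog, rose, with 13.8 ± 2.03 FPKM at 15°C and 22.8 ± 1.353 FPKM at 25°C (means ± SD, n = 3 per temperature), which is a log2 difference of 0.72, while atg-13 was at -0.0036. In the lipid kinase complex, the member bec-1 included, 0 of 4 were higher and 1 was lower, beside the same shares. This was vps-15, the regulatory subunit, with -0.69 (adjusted p = 0.046 from limma), which did not pass without 15°C replicate 2 or 3 or 25°C replicate 1 or 3 (-0.68, -0.52, -0.54 and -0.69) nor with the length correction, median-ratio scaling, equal sums, no filter or no trend (-0.45, -0.66, -0.51, -0.69 and -0.69), while the catalytic subunit gene vps-34 was at -0.02. Beside atg-9 itself, atg-2 and epg-6 were tested for the ATG-9 step. epg-6 was at -0.32 and did not pass, and atg-2, which encodes a lipid transfer protein, was higher, with 2.24, 1.17 and 2.25 FPKM at 15°C and 4.02, 4.32 and 3.32 FPKM at 25°C. The difference in log2 of 0.91 did not pass without 25°C replicate 1, 2 or 3 (0.88, 0.84 and 1.004).

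Among 9 tested genes of the conjugation systems, lgg-1 and atg-16.1 were higher and atg-3 was lower at an adjusted p under 0.05. Of all tested genes 18.2% were higher and 21.3% lower by this rule. In 5 of the 9 every 25°C value exceeded every 15°C value, and in 1 every 25°C value was below. Among all tested genes 25.9% and 28.7% had these patterns. At an unadjusted p under 0.05 (limma) 5 were higher and 1 was lower, beside 22.9% and 26.9% of all tested genes. The list includes the members lgg-1, lgg-2 and atg-7, and its median log2 fold change of 0.34 is the value of lgg-2. atg-16.1, 1 of 2 genes for the scaffold of the conjugation complex, rose, with 5.28 ± 0.321 FPKM at 15°C and 8.37 ± 0.932 FPKM at 25°C. The difference of 0.61 in log2 did not pass without 25°C replicate 1 or 3 (0.57 and 0.56), and the gene was named after its value was seen. atg-3, the E2-like enzyme that attaches LGG proteins to lipid, was at 68.2 ± 2.12 and 54.04 ± 4.18 FPKM, a log2 fold change of -0.33. Its call at an adjusted p of 0.045 was lost without any one of the 6 libraries (-0.40 to -0.29) and with median-ratio scaling, TPM or equal sums (-0.31, -0.15 and -0.15). Of the cargo receptors, 2 of 4 tested genes were higher, sqst-1 and epg-2, and 0 were lower, where 18.2% and 21.3% of all tested genes were. With sqst-1 a member, epg-2 is the only other called gene of this list. epg-2, which in embryos acts as a scaffold between protein aggregates and the autophagy machinery, was at 5.09, 3.59 and 4.33 FPKM at 15°C, against 9.03, 9.38 and 9.33 FPKM at 25°C. The difference of 1.02 in log2 (limma adjusted p = 0.0043) was past the study's rule, but not past it without 15°C replicate 2 or 3 or 25°C replicate 1, 2 or 3 (0.91, 1.03, 1.04, 1.01 and 1.02). sepa-1, the receptor of the same embryonic aggregates, was below 0.14 FPKM in the libraries at 15°C and listed at 0 in those at 25°C, and was not tested.

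Of 9 tested genes of maturation and fusion, 3 were lower and 0 higher, where 21.3% and 18.2% of all tested genes were, with a median log2 fold change of -0.39, and 4 did not overlap between the temperatures, each lower, as were 28.7% of all tested genes. At an unadjusted p under 0.05 (limma) 5 were lower and 0 higher, beside 26.9% and 22.9% of all tested genes. At an adjusted p under 0.05 the count was 6 lower and 1 higher without 15°C replicate 2. It was 1 lower without 25°C replicate 3, with TPM or with equal sums. vps-18, a subunit of the HOPS complex that tethers vesicles to the lysosome, fell, with 83.7 ± 9.73 FPKM at 15°C and 39.3 ± 6.17 FPKM at 25°C (means ± SD, n = 3 per temperature), or -1.08 in log2 (standard error 0.16, limma adjusted p = 0.0024). It was past the study's rule, though not without 15°C replicate 3 or 25°C replicate 1 or 3 (-0.99, -0.95 and -1.12) nor with TPM, equal sums or the length correction (-0.89, -0.90 and -0.89). Another HOPS subunit gene, vps-33.1, was at -0.58, a call lost without 25°C replicate 3 (-0.56), and was named after its value was seen. epg-4, whose product resides in the endoplasmic reticulum, was at -0.46, a call lost without 25°C replicate 1 or 3 (-0.45 and -0.46). Both were no longer past an adjusted p of 0.05 with rescaling to TPM (-0.38 and -0.27).

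**Figure D5:**
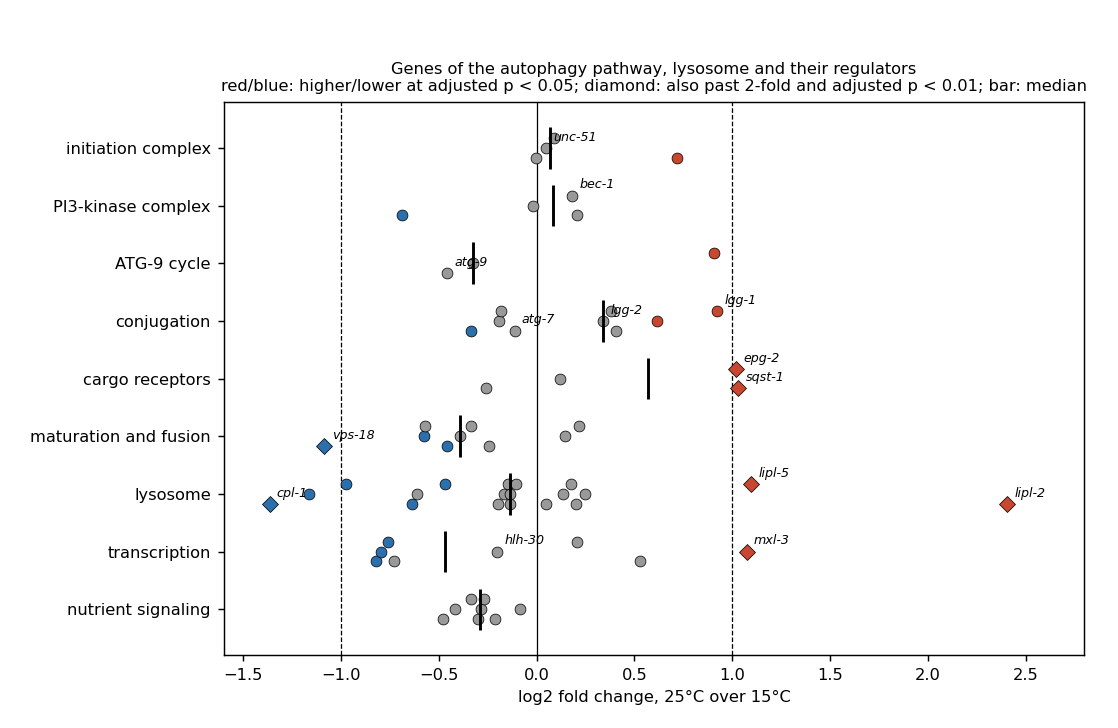
Log2 fold change at 25°C over 15°C (horizontal axis) of every tested gene of the pathway lists (rows), with colours for an adjusted p under 0.05, diamonds for genes past the study's rule and a bar at the median of each list. The autophagy genes of the main list and the genes past the study's rule carry their names, lipl-2 is farthest to the right at 2.41 and cpl-1 farthest to the left at -1.36.

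For the lysosome, which HLH-30 serves in its role as a transcription factor, 2 of 19 tested genes were higher and 5 lower at an adjusted p under 0.05, where 18.2% and 21.3% of all tested genes were, with a median log2 fold change of -0.14. Both that rose encode lysosomal acid lipases. lipl-2 was at 2.68, 2.83 and 2.43 FPKM at 15°C, against 21.0, 12.8 and 15.7 FPKM at 25°C. This is a difference of 2.41 in log2 (standard error 0.21, limma adjusted p = 0.00037), which was called by treat as well. The level of lipl-5 rose by 1.10 on the log2 scale, with 288 ± 29.9 FPKM at 15°C and 614 ± 13.8 FPKM at 25°C. The lipase genes lipl-1, lipl-3 and lipl-4 were at -0.20, -0.61 and -0.11 and did not pass, with levels between 0.442 and 3.04 FPKM in all libraries. The largest fall was that of cpl-1, the gene of a cathepsin L protease, from 992 ± 85.5 to 384 ± 9.76 FPKM, or -1.36 in log2 (standard error 0.10, limma adjusted p = 0.00024). The other 4 that were lower, named after their values were seen, were ppt-1 (-1.16), a palmitoyl-protein thioesterase, laat-1 (-0.98) and ctns-1 (-0.64), which export amino acids from the lysosome, and scav-3 (-0.47), a lysosomal membrane protein. laat-1 passed the study's rule without 15°C replicate 2 or 25°C replicate 2 (-1.03 and -1.10), and scav-3 did not pass the first rule without 15°C replicate 1 or 3 or without any library at 25°C (-0.52, -0.37, -0.38, -0.53 and -0.50). The aspartic protease genes asp-1, asp-3 and asp-4 and the V-ATPase genes vha-15, vha-16 and vha-17 ranged from -0.14 to 0.25 and did not pass.

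Of 8 tested genes of the transcription list, hlh-30 among them, mxl-3 was higher and 3 were lower at an adjusted p under 0.05. Of all tested genes 18.2% were higher and 21.3% lower. mxl-3 encodes a helix-loop-helix repressor that competes with HLH-30 at lysosomal lipase genes. Its 15°C libraries held 18.8, 18.6 and 19.9 FPKM and its 25°C libraries 36.8, 41.6 and 44.1 FPKM, with narrow groups that lay far apart. The difference in log2 was 1.07 (standard error 0.12, limma adjusted p = 0.0010), and the study's call held without each of the 6 libraries in turn, though treat did not call it. mxl-2, the Mlx homolog and partner of MML-1, fell, with 61.2 ± 11.96 FPKM at 15°C and 34.1 ± 4.69 FPKM at 25°C, or -0.82 in log2, while mml-1 was at 0.21 and did not pass. The other lower genes, named after their values were seen, were daf-16 (-0.76), the FOXO factor of the insulin pathway, and hsf-1 (-0.79), the heat shock factor. hsf-1 did not pass without 15°C replicate 1 or 3 or 25°C replicate 1 or 3 (-0.86, -0.62, -0.62 and -0.81). With rescaling to TPM, vps-15, scav-3 and hsf-1 (-0.48, -0.28 and -0.58) did not pass either. xpo-1, the nuclear export receptor of HLH-30, was at -0.73 with an adjusted p of 0.094 (limma, with values between 38.3 and 79.2 FPKM at 15°C). pha-4, the FoxA factor, was at 0.53 with groups that did not overlap and an adjusted p of 0.055 (limma), and both genes were named after their values were seen. Of 8 tested genes of nutrient signaling, including let-363 (-0.30), the gene of the TOR kinase, 0 passed in either direction by limma and by treat, while an unadjusted p under 0.05 was reached by 2, both lower, and 0 higher, where 26.9% and 22.9% of all tested genes were, and their median was -0.29. Without 15°C replicate 2 the number lower was 3, and with the length correction 1.

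Some genes of other tissues and stages differed between the temperatures as well. The counts below are at an adjusted p under 0.05, by which 18.2% of all tested genes were higher and 21.3% lower. Of 9 tested yolk and oocyte genes, 8 were lower and 0 higher at 25°C by limma, with a median log2 fold change of -1.30, and their summed level was 3199 to 5282 FPKM at 15°C and 1836 to 2214 FPKM at 25°C. The summed level of 9 molting genes was 51.4 to 62.9 FPKM at 15°C and 108 to 114 FPKM at 25°C. That sum was carried by mlt-7 and mlt-8 (1.96 and 1.19 in log2), while of the 7 tested 2 were higher and 2 lower, the latter nas-37 and noah-2 (-0.92 and -1.23). For 6 body-wall muscle genes the sum was 3314 to 3843 and 2458 to 3047 FPKM, with 2 lower and 0 higher. For 11 sperm genes (6216 to 8707 and 6334 to 6814 FPKM), 7 intestine genes (7193 to 9405 and 5822 to 8064 FPKM) and 7 neuron genes (399 to 488 and 475 to 498 FPKM) the summed ranges overlapped, and 0 of all these genes were listed at 0 in any library. Within these lists the sperm gene spe-11, the intestine gene elt-7 and the neuron gene unc-64 were higher (0.52, 1.11 and 0.80 in log2), and the sperm gene msp-33 and the intestine gene pept-1 were lower (-0.45 and -0.43). Most of the intestine sum was mtl-2, at 5988 ± 1052 and 5039 ± 1148 FPKM. The part of tissue composition and exact stage in the differences of the autophagy genes was not tested. In whole worms, fewer cells of a type and less RNA per cell cannot be told apart.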

How the data were processed

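Per the labels and methods, TopHat2 2.0.6 and the Cufflinks tools were run against WBcel235, and the authors deposited 1 FPKM value per gene and library from a stranded mRNA kit. For the annotation, for any filtering and for the use of strand in counting, the sources used here state nothing, and bec-1 and hlh-30 overlap noncoding genes in the annotation (1 and 2). The libraries summed to between 2663992 and 3313082 FPKM. Positions and exonic lengths are from the Ensembl annotation of WBcel235. The contrast of 25°C to 15°C was fitted by limma-trend (limma 3.58.1, R 4.3.3) to all 6 libraries without covariates, with a pseudocount of 0.5, a mean of at least 1 FPKM and Benjamini-Hochberg adjustment over 12996 genes, and tests were two-sided. Fold changes on this scale understate changes of low genes. Python 3.11.15 with pandas 2.3.3 and matplotlib 3.10.9 served for summaries and plots. In simulated data for 25°C against 15°C with 12996 genes, the study's rule recovered 62 of 100 genes given a log2 change of 1.5 and 88 of 100 given 2.5, and took 0 unchanged genes. The changed genes were few, excluded low genes and had independent noise without length or scaling effects. In the real data 39.5% of tested genes passed an adjusted p of 0.05. Changes as small as those of the members were not simulated, so their recovery is unknown.

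The members and the pathway lists were chosen with earlier results of these data known. Named genes were the 8 members and, from each pathway list, those past the study's rule and those with the largest and smallest fold change at an adjusted p under 0.05. Other genes were named after their values were seen. For hlh-30 and sqst-1 the 3 most correlated genes were named. Of 71 listed pathway genes beside the members, 61 had a row and 60 were tested. Alternative settings comprised a pseudocount of 0.1 or 1, dropping the filter or raising it to 5 FPKM, scaling by median ratios, TPM, equal sums, no trend, an adjusted p under 0.05 with the fold threshold, treat, the replicate number as a block and each library left out, and, added after the data were seen, a lowess correction for exonic length with a span of 0.3.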

Additional observations from a re-analysis of the deposited data

How the results depend on the processing

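Of the 8 members, the number higher by the study's rule was 1 and became 2 with rescaling to TPM or equal sums, 0 with no trend or treat, and 0 to 1 without single libraries, where the 1 left without 15°C replicate 2 was lgg-1 and not sqst-1. Over all tested genes that rule called 904 higher and 726 lower, 1096 and 395 with TPM, and 1212 and 422 with equal sums. It called 881 and 652 with no trend, 137 and 26 with treat, and 561 to 855 and 320 to 826 without single libraries. At an adjusted p under 0.05 the number of members higher was 2, 0 with treat and 2 to 3 without single libraries, and the number lower was 0 to 1. atg-7 changed sign with TPM (0.068) and equal sums (0.070), and unc-51 without 15°C replicate 2 or 25°C replicate 3 (-0.071 and -0.015, with 0.15 the highest among fits without single libraries), none of them past the test. For the 60 pathway genes, TPM and equal sums each gave 1 lower by the study's rule in place of 2, and 12 higher and 7 lower at an adjusted p under 0.05 in place of 7 and 13. Treat gave 1 higher and 0 lower under both rules. Without single libraries the ranges were 3 to 4 higher and 1 to 3 lower by the study's rule, and 5 to 9 higher and 7 to 18 lower at an adjusted p under 0.05. The difference of the log2 ratio of lgg-1 to lgg-2 was 0.41 to 0.76 without single libraries. The cause of these moves was not tested. TPM and equal sums divide by the same library sums and differ only in the weight of the pseudocount, so their likeness was fixed in advance.

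The labels do not say whether the replicate numbers pair the libraries. The deviations of same-numbered libraries correlated at -0.03, -0.10 and -0.05, and those of differently numbered libraries at -0.12 to 0.16. With 3 libraries per temperature, these correlations cannot settle whether the libraries were paired. With the replicate number as a block, 1 member was still higher by the study's rule and 2 at an adjusted p under 0.05, 3 pathway genes were higher and 2 lower by the study's rule and 6 higher and 11 lower at an adjusted p under 0.05, and the ratio differed by 0.58. Among named genes the block took epg-2 out of the study's rule and atg-2, atg-3 and scav-3 out of an adjusted p under 0.05 (limma, 0.017, 0.063, 0.094 and 0.055). Since the depth is unknown, counting error has no interval here.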
